A study of Mus musculus with 8 samples.

Results

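The solute carrier (Slc) genes of mouse follicular B cells were examined across 4 groups of arrays. Members were the probe sets whose single gene symbol on the platform begins with Slc and a family number, and a gene with several probe sets was represented by the one with the highest mean log2 signal over the 8 arrays. This gave 151 Slc genes of 8251 genes measured with 1 symbol. Of these 151, 122 had 1 probe set and 29 had more. The brightest probe set of 96 genes was bright enough to be tested, that is, among the brightest 60% of all probe sets, and that of the other 55 was too dim. Values are signals on a linear scale, given for array 1 and then array 2 of a group, and changes are on the log2 scale with the standard error of the fit. The array holds part of the mouse solute carrier genes, so the 151 are those measured and not the whole superfamily.

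The study compared B cells that carry an IgM antigen receptor against HEL (hen egg lysozyme, a model antigen) with B cells that carry a receptor called IgMG. In IgMG the variable part still binds HEL, while the spacer outside the cell, the membrane segment and the tail inside the cell come from IgG1 in place of IgM. Follicular (FO) B cells of each receptor type were measured unstimulated and after HEL stimulation, with 2 arrays in each of the 4 groups. Each array held RNA pooled from 2 to 4 mice for IgM cells and 5 to 8 mice for IgMG cells, from 1 to 3 sorts, so receptor type and the number of mice pooled cannot be told apart. The 4 groups thus combine each receptor with each condition, and all of them share the HEL specificity and the FO sort. The dose and duration of HEL, the mouse strain, the age of the mice and the way the receptors were introduced could not be read from the labels.

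Solute carriers are membrane proteins that move amino acids, sugars, ions, metals, vitamins, nucleotides and many other small molecules across the plasma membrane and the membranes of organelles, mostly down a gradient or coupled to the flow of another ion. Each family is numbered, and families tend to share the kind of substrate. A resting B cell that receives a signal through its antigen receptor prepares to grow, and nutrient uptake is among the functions known to be regulated at that step.

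The arrays within a group correlated at 0.939 to 0.971 over log2 signals, and arrays of different groups at 0.876 to 0.973. The summed signal of the 8 B cell markers measured, of 9 listed, lay between 21510 and 27052 on every array, and none of the 8 was near 0. The summed signal of the 4 marginal zone B cell markers was 929 to 1265 on the IgMG arrays and 700.3 to 892 on the IgM arrays. None of the 4 passed the threshold between the receptor types in either condition. Of the T cell list 1 of 7 measured genes was bright enough to test, and of the platelet list 0 of 2. The plasma cell list had 1 of 3 tested, Jchain, which read 547.7 on the second IgMG unstimulated array and at most 178.1 on the others. The NK cell and myeloid lists had their highest sums, 2498 and 12339, on the second IgMG unstimulated array, against 197 to 564 and 842 to 4748 on the other arrays. Of the erythroid list 5 of 9 genes were measured, and their sum ran from 12738 to 20646, with Hba-a1 between 9595 and 16616 on every array. The ratio of the 5' to the 3' Gapdh control signal, a sign of how complete the labelled RNA is, was 0.755 on the second IgM HEL array and 0.140 to 0.395 on the others.

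HEL was followed by both increases and decreases among the Slc genes, and the genes past the threshold in IgMG cells were increases with 1 exception. In IgM cells 9 of the 96 tested genes rose and 9 fell (limma, Benjamini-Hochberg adjusted p under 0.05), or 9.38% each way, where 6.70% of all tested probe sets rose and 7.27% fell. In IgMG cells 8 rose and 1 fell, or 8.33% and 1.04%, against 3.10% and 2.29% of all tested probe sets. In either direction 14% of all tested probe sets passed in IgM cells and 5.39% in IgMG cells. The 6 genes that rose in both were Slc20a1, Slc23a2, Slc31a1, Slc39a6, Slc25a25 and Slc35e1, and Slc37a4 fell in both. The median log2 change of the 96 genes was 0.03 in IgM cells and 0.02 in IgMG cells, where that of all tested probe sets was -0.02 and -0.05. Over all 96 genes, whether past the threshold or not, 50 changes lay above 0 and 46 below 0 in each cell type.

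The counts changed on leaving out single arrays, and a count without an array can include genes that did not pass with all arrays. Leaving out an array also left its group with 1 array, which lowers the precision for that group whichever array it is. In IgM cells the 18 genes became 5 without the first unstimulated IgM array, 10 without the second, and 7 without the second IgM HEL array. The 5 were Slc20a1, Slc23a2, Slc31a1, Slc39a6 and Slc25a53, and these 5 passed the threshold in IgM cells under every alternative run. The other 13 calls in IgM cells, and each of the 9 in IgMG cells, ended on leaving out at least 1 array. In IgMG cells the 9 genes became 0 without the second IgMG HEL array, with 16 at an unadjusted p under 0.05 in limma, and 2 without the first. Without the first or the second unstimulated IgMG array 4 and 5 genes passed, and without either unstimulated IgM array 2 passed, through the shared estimate of the spread. Those 2 were Slc31a1 and Slc39a6.

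**Figure D1:**
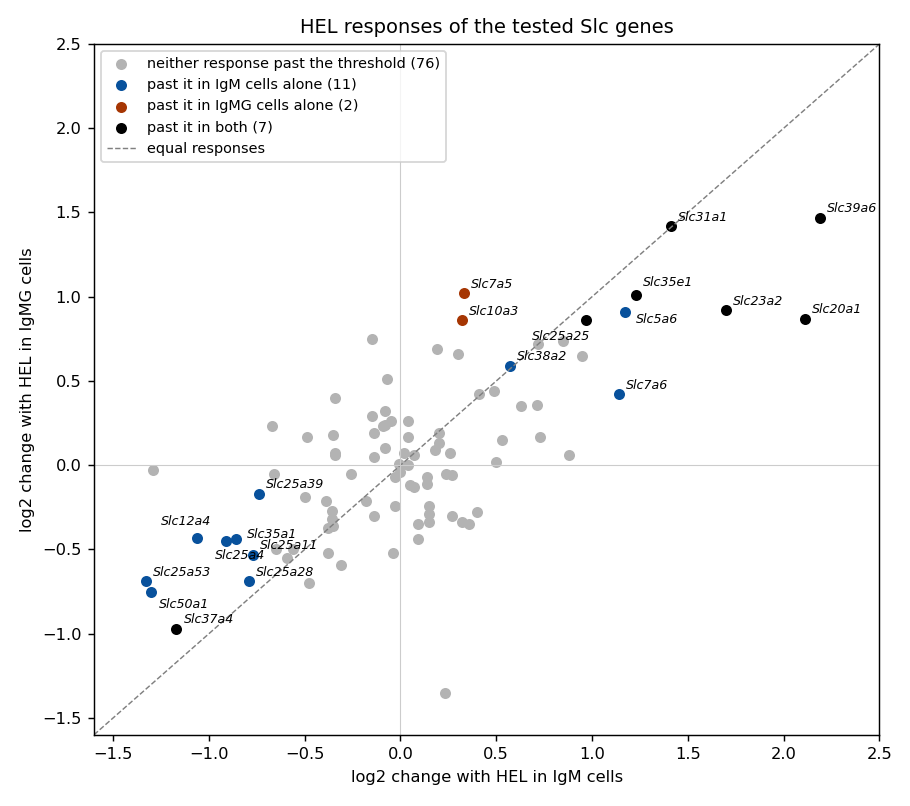
The log2 change with HEL in IgM cells (horizontal axis) is plotted against that in IgMG cells (vertical axis) for the 96 tested Slc genes, 1 point a gene, with the line of equal responses. Of the 20 genes past the threshold in either cell type, 7 passed in both, 11 in IgM cells alone and 2 in IgMG cells alone, and 16 had the larger change in IgM cells. As 18 of the 20 were chosen for passing in IgM cells, this is a description with no test. Of all tested probe sets 14% passed in IgM cells and 5.39% in IgMG cells.

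Phosphate carriers bring inorganic phosphate into the cell, where it is needed for nucleotides, phospholipids and ATP. Slc20a1, which encodes the sodium-coupled phosphate importer PiT-1, read 192 and 211 in unstimulated IgM cells and 928.5 and 912 after HEL. In IgMG cells it read 259 and 275 unstimulated and 429 and 585.5 after HEL. Both HEL groups stood clear of their unstimulated groups, and the IgMG arrays with HEL stood clear below the IgM arrays with HEL. The log2 change was 2.11 ± 0.18 (SE) in IgM cells (limma, adjusted p = 0.000273) and 0.87 ± 0.18 in IgMG cells (adjusted p = 0.03). Its response in IgMG cells was smaller by a log2 difference of -1.24 ± 0.26, with a 95% interval of -1.82 to -0.65, but this did not pass the threshold over all tested probe sets (limma, adjusted p = 0.414). Of the other 2 phosphate carriers measured, Slc34a1 was tested and passed the threshold in neither cell type (-0.34 ± 0.46 and 0.07 ± 0.46), and Slc34a2 was dim.

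Metal carriers had 14 of 16 measured genes bright enough to test, and the 2 that rose, Slc31a1 and Slc39a6, rose in both cell types. That is 14.3% in each, where 6.70% of all tested probe sets rose in IgM cells and 3.10% in IgMG cells. Slc31a1, the high-affinity copper importer of the plasma membrane, read 110.3 and 127.5 in unstimulated IgM cells, 341 and 340.0 after HEL, 146 and 138 in unstimulated IgMG cells and 364 and 456 after HEL. Every HEL array lay above every unstimulated array. The log2 changes were 1.41 ± 0.18 in IgM cells and 1.42 ± 0.18 in IgMG cells (limma, adjusted p = 0.00179 and 0.0039). They differed by 0.02 ± 0.25, with a 95% interval of -0.56 to 0.60, so a difference within that range cannot be told from none. A second probe set for Slc31a1 gave smaller values that did not pass the threshold, 0.62 ± 0.23 in IgM cells and 0.10 ± 0.23 in IgMG cells (limma, adjusted p = 0.108 and 0.856). With the mean of both probe sets the IgMG change was 0.76 (adjusted p = 0.0398).

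Slc39a6, a zinc importer of the ZIP family, rose most on the log2 scale among the tested Slc genes in both cell types with the offset of 16 used here, while with an offset of 64 its IgM change was 1.70 against 1.89 for Slc20a1 and its IgMG change 1.17 against 1.20 for Slc31a1. It read 65.9 and 69.1 in unstimulated IgM cells, 346 and 384 after HEL, 97.8 and 97.2 in unstimulated IgMG cells and 256 and 348 after HEL. The HEL arrays lay above the unstimulated arrays throughout, while the HEL arrays of the 2 receptor types overlapped. The changes were 2.19 ± 0.19 and 1.47 ± 0.19 (limma, adjusted p = 0.000282 and 0.00448).

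None of the other 12 tested metal carriers passed the threshold in either cell type. Slc39a4, Slc30a3 and Slc39a1 were the 3 brightest of the class, and among them the zinc importer Slc39a1 had the largest change, -0.59 ± 0.17 in IgMG cells (limma, adjusted p = 0.0799). A second Slc39a4 probe set had a mean signal of 26.1, against 460 for the one used. A second Slc39a1 probe set, with a mean of 27.8, gave 0.23 ± 0.31 in IgM cells and -0.87 ± 0.31 in IgMG cells (adjusted p = 0.676 and 0.145). Slc11a2 (DMT1), an importer of ferrous iron and other divalent metals, had log2 changes of -0.65 ± 0.31 and -0.50 ± 0.31 in IgM and IgMG cells (adjusted p = 0.2 and 0.386). Slc11a1 (NRAMP1), a metal transporter best known from the phagosomes of macrophages, read 38 and 53.8 in unstimulated IgM cells and 89.4 and 79.8 after HEL, a change of 0.71 ± 0.36 (adjusted p = 0.229). Its IgMG arrays ran from 54.8 to 146 and overlapped between unstimulated and HEL. The highest value was on the first IgMG HEL array, where the myeloid markers Cd14 and Csf1r were also highest, at 1005 and 540. No other of the 11 myeloid markers measured was highest there. Mpo was at its lowest, 2.3, on that array. Lyz2 and S100a8 read 315 and 871 on it, against 1796 and 5339 on the second IgMG unstimulated array. The myeloid sum was highest on the second IgMG unstimulated array, where Slc11a1 read 95.6, and the part of myeloid RNA in the Slc11a1 signal was not tested. The zinc exporter Slc30a1 was dim.

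**Figure D2:**
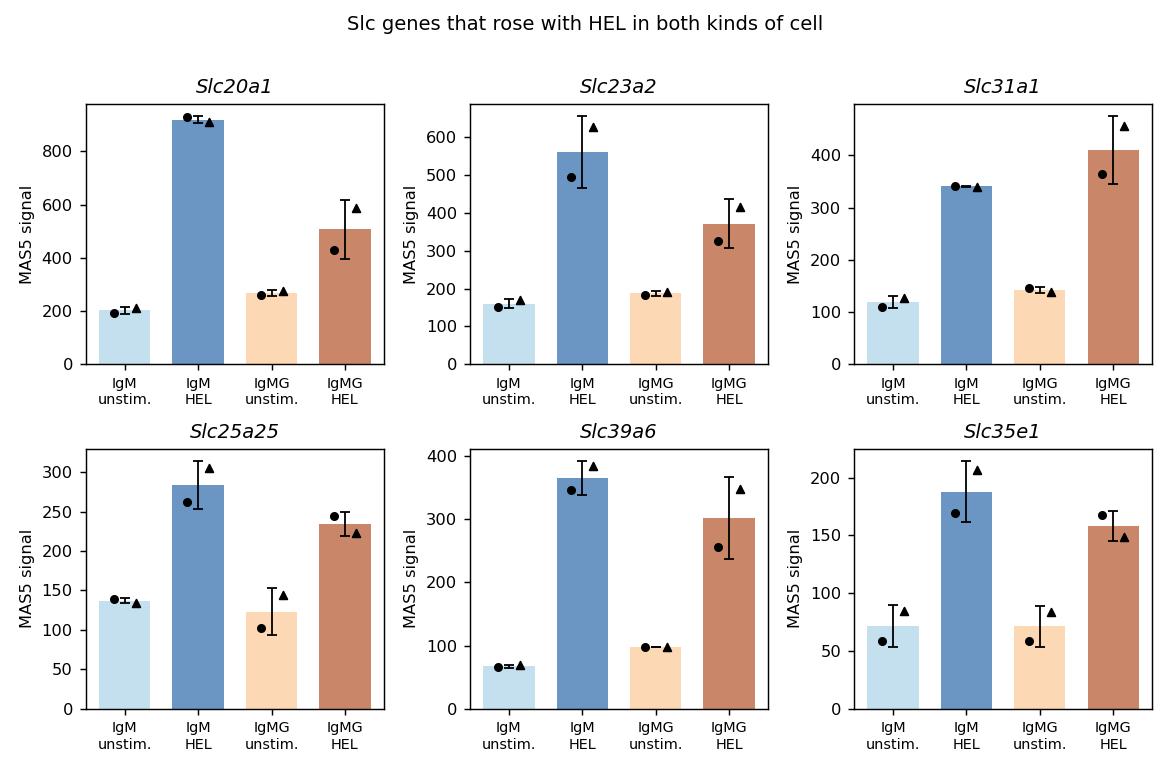
MAS5 signal (vertical axes, linear scale) of the 6 Slc genes that rose with HEL in both cell types, 1 panel a gene. Bars are means of the 2 arrays of a group with their SD, and circles and triangles are arrays 1 and 2. For Slc20a1 the IgM HEL arrays at 928.5 and 912 stand above the IgMG HEL arrays at 429 and 585.5, while for Slc31a1 the IgMG HEL arrays at 364 and 456 lie above the IgM HEL arrays at 341 and 340.0. Neither difference between the HEL groups passed the threshold (limma, adjusted p = 0.192 and 0.562). A second Slc31a1 probe set, not drawn, had the other order, with HEL means of 231 in IgM cells and 163 in IgMG cells.

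Among the carriers of vitamins and choline, 1 of 6 tested genes (16.7%) rose, in both cell types. Of all tested probe sets 6.70% rose in IgM cells and 3.10% in IgMG cells. Slc23a2, the sodium-coupled importer of ascorbate, read 152 and 169 in unstimulated IgM cells, 494 and 628 after HEL, 182.5 and 191 in unstimulated IgMG cells and 325 and 417 after HEL. All HEL arrays lay above all unstimulated arrays, and the IgMG HEL arrays lay below the IgM HEL arrays. The changes were 1.70 ± 0.19 in IgM cells (limma, adjusted p = 0.000993) and 0.92 ± 0.19 in IgMG cells (adjusted p = 0.0303), and their difference of -0.78 ± 0.27 did not pass the threshold (adjusted p = 0.444). Slc44a2, a choline transporter-like protein and the brightest of the class, and Slc19a1, the reduced folate carrier, had log2 changes of at most 0.32 ± 0.22 in size in either cell type. The Slc19a1 probe set carries the array's mark for probes shared with similar sequences. Slc5a6, the sodium-coupled multivitamin carrier for biotin and pantothenate, belongs to a family grouped here with sugar carriers. It read 47.3 and 57.3 in unstimulated IgM cells and 108 and 172 after HEL, a rise of 1.17 ± 0.30 (adjusted p = 0.0325), and 43.6 and 36.7 against 66.7 and 117 in IgMG cells, a change of 0.91 ± 0.30 that did not pass (adjusted p = 0.116).

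The 250 bases before the annotated start are shown for 2 genes that rose in both cell types, Slc20a1, with log2 changes of 2.11 and 0.87 in IgM and IgMG cells, and Slc23a2, with 1.70 and 0.92. The sequences come from RefSeq on GRCm38.p6 and are written 5' to 3' in the direction of the gene. Each gene has 2 start sites in the table, and the window of the outermost one is shown. That of Slc20a1 is chr2:129198523-129198772 on the plus strand, with the E-box letters CACGTG in capitals, 175 and 22 bases before the start. That of Slc23a2 is chr2:132145321-132145570 on the minus strand, with 2 overlapping CCAAT boxes in capitals, 1 on each strand, 101 and 98 bases before the start.
Slc20a1: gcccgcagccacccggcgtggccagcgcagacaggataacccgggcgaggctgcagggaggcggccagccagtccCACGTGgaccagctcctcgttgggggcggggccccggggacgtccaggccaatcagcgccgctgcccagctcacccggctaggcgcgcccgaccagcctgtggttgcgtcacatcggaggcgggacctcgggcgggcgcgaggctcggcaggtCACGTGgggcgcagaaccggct
Slc23a2: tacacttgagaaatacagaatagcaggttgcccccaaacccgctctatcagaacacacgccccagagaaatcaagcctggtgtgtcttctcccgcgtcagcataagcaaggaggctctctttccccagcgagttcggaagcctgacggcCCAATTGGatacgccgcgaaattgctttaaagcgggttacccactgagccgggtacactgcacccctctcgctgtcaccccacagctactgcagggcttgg

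The motifs searched on both strands of these windows were CACGTG (E-box), TGACGTCA (CRE), GCGTGGGCG (Egr site) and the CCAAT box. The Slc20a1 window also holds a CCAAT box 127 bases before the start, which overlaps neither E-box, and the Slc23a2 window holds no other of the motifs searched. A window was given for 8 of the 11 genes that rose in either cell type and for all 9 that fell. The E-box was present for 1 of those 8 and 0 of those 9, and for 11.5% of the 78 tested Slc genes and 6.86% of all 27025 genes with a window. The CCAAT box was present for 6 of 8 and 4 of 9, and for 32.1% of tested Slc genes and 37.5% of all genes. CRE was present for 1 of 8 and 0 of 9 (2.56% of tested Slc genes and 1.77% of all genes), and the Egr site for 1 of 8 and 1 of 9 (6.41% of tested Slc genes and 0.622% of all genes). These matches describe letters in the windows and were not tested.

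Amino acid carriers had 9 of 20 measured genes bright enough to test, and 2 of them rose in IgM cells and 1 in IgMG cells, with none falling. That is 22.2% and 11.1%, where 6.70% of all tested probe sets rose in IgM cells and 3.10% in IgMG cells. The median log2 change of the 9 was 0.53 in IgM and 0.42 in IgMG cells, and 7 of the 9 changes lay above 0 in each. The medians of all tested probe sets were -0.02 and -0.05. Slc38a2, a sodium-coupled importer of small neutral amino acids, read 428 and 473 in unstimulated IgM cells and 691 and 663 after HEL, and 511 and 528 against 815 and 768 in IgMG cells. The HEL arrays lay above the unstimulated arrays in each cell type by like amounts, 0.57 ± 0.15 and 0.59 ± 0.15, of which the first passed the threshold (limma, adjusted p = 0.0328) and the second did not (adjusted p = 0.0508). The difference between the 2 responses was 0.02 ± 0.21 (adjusted p = 0.98).

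The heteromeric amino acid exchangers pair a light chain of the Slc7 family, which carries the substrate, with the heavy chain CD98, encoded by Slc3a2. Slc3a2 read 436 and 657 in unstimulated IgM cells, 957 and 827.5 after HEL, 540.3 and 601 in unstimulated IgMG cells and 896 and 1007 after HEL. Each HEL array was above each unstimulated array, and the changes of 0.72 ± 0.21 in both cell types did not pass the threshold (limma, adjusted p = 0.0506 and 0.0803). Slc7a5, the light chain LAT1 for large neutral amino acids, read 362 and 292 in unstimulated IgM cells and 471 and 359 after HEL, which overlapped, and 273.5 and 203 against 430.0 and 571 in IgMG cells, which did not. It rose in IgMG cells by 1.02 ± 0.23 (adjusted p = 0.0398), and its IgM change was 0.33 ± 0.23 (adjusted p = 0.397).

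Slc7a6, the light chain y+LAT2, showed the other order. It read 37.7 and 25.2 in unstimulated IgM cells and 84.6 and 90.1 after HEL, and 41.2 and 29.3 against 47.9 and 56.2 in IgMG cells. The HEL arrays lay above the unstimulated arrays in both, by a wider gap in IgM cells. It rose in IgM cells by 1.14 ± 0.25 (limma, adjusted p = 0.0199), and the IgMG change was 0.42 ± 0.25 (adjusted p = 0.382). With the mean of its probe sets the IgM change was 0.63 (adjusted p = 0.168), and with an offset of 64 it was 0.67. The differences between the 2 responses, 0.70 ± 0.33 for Slc7a5 and -0.72 ± 0.36 for Slc7a6, did not pass the threshold (adjusted p = 0.485 and 0.502). Slc7a7, the light chain y+LAT1, had HEL arrays above unstimulated arrays in both cell types, with changes of 0.95 ± 0.38 and 0.65 ± 0.38 that did not pass (adjusted p = 0.137 and 0.362). Slc1a5, an exchanger of glutamine and other neutral amino acids, read 524 and 428 in unstimulated IgM cells and 611 and 779 after HEL, a change of 0.53 ± 0.18 (adjusted p = 0.093), against 0.15 ± 0.18 in IgMG cells (adjusted p = 0.699). Slc7a1, the importer of cationic amino acids, and Slc7a11, the cystine importer, were dim.

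**Figure D3:**
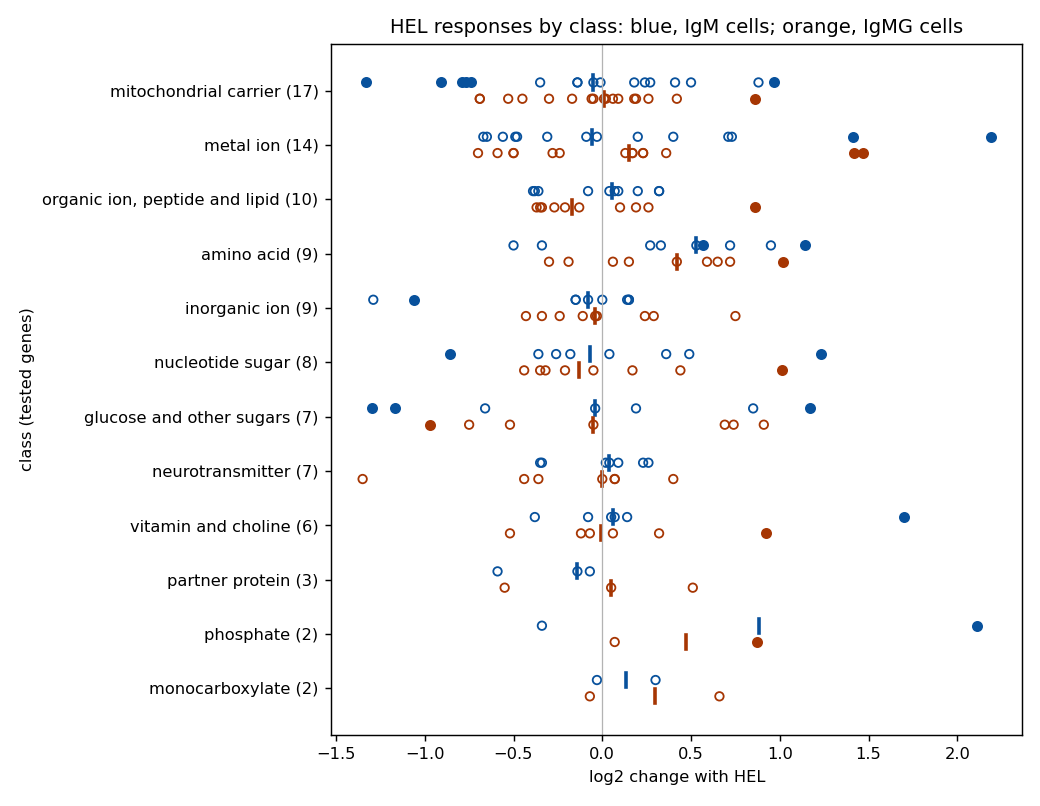
Log2 change with HEL of the tested Slc genes by class, in IgM cells and in IgMG cells, 1 point a gene, with the class median as a bar and the genes past the threshold filled. Amino acid carriers have medians of 0.53 and 0.42, and 5 of the 17 mitochondrial carriers fell in IgM cells and 0 in IgMG cells. All tested probe sets had medians of -0.02 and -0.05, and 7.27% and 2.29% of them fell.

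Sugar carriers had 7 of 11 measured genes tested. In IgM cells 2 of them fell and 1, the vitamin carrier Slc5a6, rose, and in IgMG cells 1 fell. That is 28.6% falling and 14.3% rising in IgM cells, where 7.27% and 6.70% of all tested probe sets did. In IgMG cells it is 14.3% falling, where 2.29% of all tested probe sets fell. Slc50a1, the SWEET1 sugar transporter, read 1049 and 957 in unstimulated IgM cells and 383 and 413 after HEL, and 1242 and 777 against 546 and 614 in IgMG cells. HEL arrays lay below unstimulated arrays in each cell type. The change was -1.30 ± 0.22 in IgM cells (limma, adjusted p = 0.0059) and -0.75 ± 0.22 in IgMG cells (adjusted p = 0.082). Slc37a4, which moves glucose 6-phosphate into the endoplasmic reticulum, read 145 and 131 in unstimulated IgM cells and 49.6 and 55.5 after HEL, and 149.9 and 143.5 against 85.1 and 52 in IgMG cells. It fell in both, by 1.17 on the log2 scale in IgM cells (SE 0.23, adjusted p = 0.0116) and by 0.97 in IgMG cells (SE 0.23, adjusted p = 0.0461).

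The glucose importers of the plasma membrane did not pass the threshold in either cell type. Slc2a1 (GLUT1) read 100.1 and 90.4 in unstimulated IgM cells and 52.8 and 56.3 after HEL, a change of -0.66 ± 0.21 (limma, adjusted p = 0.0658), and its IgMG arrays, at 82.8 and 65.7 against 69.2 and 72.6, overlapped (-0.05 ± 0.21). Slc2a3 (GLUT3) had HEL arrays above the unstimulated arrays in both cell types, with log2 changes of 0.85 ± 0.32 and 0.74 ± 0.32 (adjusted p = 0.119 and 0.219). Its second probe set was dim. Slc2a5, the fructose carrier GLUT5, had changes of 0.19 ± 0.31 and 0.69 ± 0.31. Slc2a4, the insulin-responsive carrier GLUT4, was dim.

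Mitochondrial carriers of the Slc25 family link the cytosol with the mitochondrial matrix, and 17 of 20 measured genes were tested. In IgM cells 5 fell (29.4%, where 7.27% of all tested probe sets fell) and 1 rose, and in IgMG cells none fell (2.29% of all tested probe sets) and 1 rose. Slc25a53, an orphan carrier, read 731.5 and 612 in unstimulated IgM cells and 263 and 251 after HEL, and 615 and 741 against 357 and 480.0 in IgMG cells. Its fall of 1.33 on the log2 scale in IgM cells (SE 0.19, limma, adjusted p = 0.00338) had the smallest p among the Slc genes that fell, and the IgMG change was -0.69 ± 0.19 (adjusted p = 0.0787). Slc25a4, the ADP/ATP carrier of heart and muscle type, read 657 and 547 in unstimulated IgM cells and 336 and 287 after HEL, and 531 and 504 against 391 and 360.1 in IgMG cells. It fell by 0.91 in IgM cells (SE 0.17, adjusted p = 0.0094), and the IgMG change was -0.45 ± 0.17 (adjusted p = 0.159).

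The other 3 mitochondrial carriers that fell in IgM cells had changes between -0.79 and -0.74. Slc25a11, the oxoglutarate/malate carrier, fell by 0.77 (SE 0.17, limma, adjusted p = 0.0179). Slc25a28 (mitoferrin 2), an iron importer of mitochondria, fell by 0.79 (SE 0.19, adjusted p = 0.0256), and Slc25a39, a carrier needed for mitochondrial glutathione, by 0.74 (SE 0.20, adjusted p = 0.0412). Their IgMG changes were -0.53 ± 0.17, -0.69 ± 0.19 and -0.17 ± 0.20, none past the threshold, and in IgMG cells too the HEL arrays lay below the unstimulated arrays for each of the 3. Slc25a39 read 953 and 852 in unstimulated IgM cells and 659 and 432.5 after HEL. The lower of its IgM HEL values was on the array with the high Gapdh ratio, and without that array the change was -0.44.

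Slc25a25, a carrier of ATP-Mg and phosphate regulated by calcium, was the mitochondrial carrier that rose. It read 139 and 135 in unstimulated IgM cells and 262 and 305 after HEL, and 102 and 145 against 245 and 223 in IgMG cells. All HEL arrays lay above all unstimulated arrays, and the rises were 0.97 ± 0.20 and 0.86 ± 0.20 (limma, adjusted p = 0.0151 and 0.0448). Slc25a5, the ADP/ATP carrier of growing cells, read 318 and 207 in unstimulated IgM cells and 405 and 587 after HEL, a change of 0.88 ± 0.28 (adjusted p = 0.0658), and 0.06 ± 0.28 in IgMG cells. Its brightest probe set carries the same mark for shared probes as that of Slc19a1, so signal from relatives cannot be told apart. Another Slc25a5 probe set, with a mean signal of 95.9, gave 0.43 ± 0.28 in IgM cells and 0.35 ± 0.28 in IgMG cells. A dimmer probe set, with a mean of 24.3, gave 0.55 ± 0.40 and -0.15 ± 0.40. The differences between the responses were -0.82 ± 0.39 with the brightest probe set, -0.07 ± 0.39 with the next and -0.70 ± 0.56 with the dimmest. None of these values passed the threshold. The log2 changes of Slc25a36, which carries pyrimidine nucleotides, were 0.41 ± 0.15 and 0.42 ± 0.15, and those of Slc25a1, the citrate carrier, 0.18 ± 0.25 and 0.09 ± 0.25, none past the threshold.

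**Figure D4:**
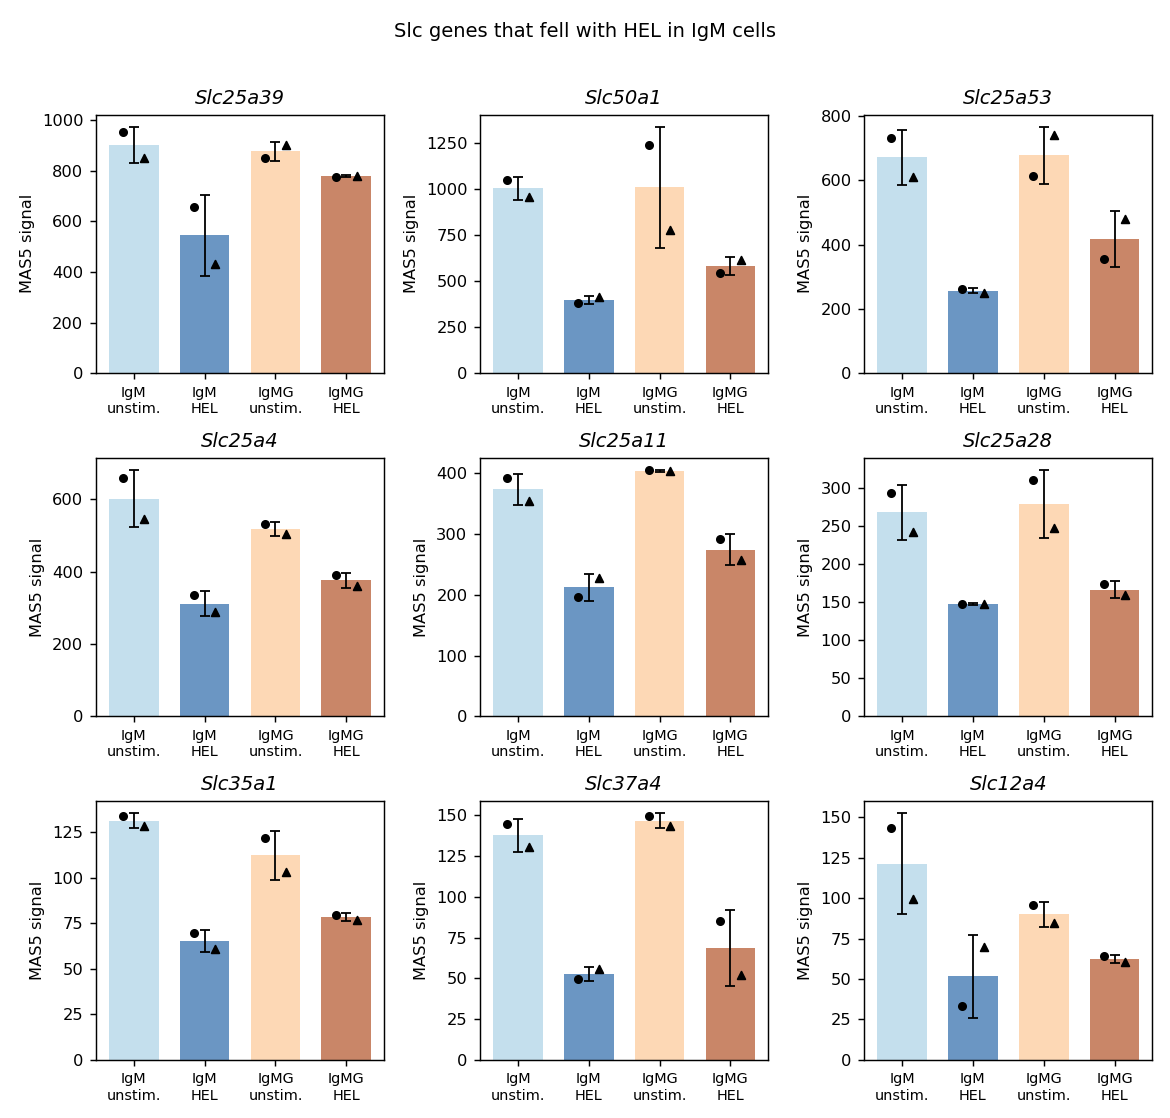
MAS5 signal (vertical axes, linear scale) of the 9 Slc genes that fell with HEL in IgM cells, 1 panel a gene. Bars are means of the 2 arrays of a group with their SD, and circles and triangles are arrays 1 and 2. In each panel the HEL arrays lie below the unstimulated arrays of the same receptor type. The 9 were chosen for falling in IgM cells, and the share of all tested probe sets with this order was not taken, so it is a description with no test. Slc37a4 alone of the 9 passed the threshold in IgMG cells too, where 2.29% of all tested probe sets fell.

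Nucleotide sugar carriers of the Slc35 family supply the Golgi and endoplasmic reticulum with sugars for glycosylation. In IgM cells 1 of 8 tested genes rose and another 1 fell, and in IgMG cells 1 rose, or 12.5% each time. Of all tested probe sets 6.70% rose and 7.27% fell in IgM cells, and 3.10% rose in IgMG cells. Slc35a1, the CMP-sialic acid transporter of the Golgi, read 134 and 129 in unstimulated IgM cells and 69.6 and 61.1 after HEL, and 122 and 103 against 79.8 and 76.7 in IgMG cells. It fell by 0.86 on the log2 scale in IgM cells (SE 0.19, limma, adjusted p = 0.0197), and the IgMG change was -0.44 ± 0.19 (adjusted p = 0.215). Slc35e1, an orphan of the family, read 58.7 and 84.7 in unstimulated IgM cells and 169 and 206.5 after HEL, and 59.0 and 84.1 against 167 and 149 in IgMG cells. It rose by 1.23 ± 0.24 and 1.01 ± 0.24 (adjusted p = 0.0105 and 0.0453), but a second probe set gave 0.07 ± 0.34 and 0.58 ± 0.34 (adjusted p = 0.924 and 0.365), so the 2 probe sets disagree in IgM cells, where their mean gave 0.65 (adjusted p = 0.0557). That second probe set, with a mean signal of 57.8, carries the array's mark for probes shared with similar sequences. Slc35b1, the brightest of the class, had changes of 0.04 ± 0.19 and 0.17 ± 0.19.

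Carriers of inorganic ions had 9 of 17 measured genes tested, and 1 fell in IgM cells, or 11.1%, where 7.27% of all tested probe sets fell. Slc12a4, the potassium-chloride cotransporter KCC1, read 143 and 99.5 in unstimulated IgM cells and 33.2 and 69.9 after HEL, a fall of 1.06 on the log2 scale (SE 0.29, limma, adjusted p = 0.0439), and the change in IgMG cells was -0.43 ± 0.29 (adjusted p = 0.438). Without the first IgM HEL array the IgM change of Slc12a4 was -0.66 (limma, adjusted p = 0.156), and without the second it was -1.46 (adjusted p = 0.0289). Slc12a2 (NKCC1), the sodium-potassium-chloride cotransporter, overlapped between unstimulated and HEL arrays in both cell types (-0.08 ± 0.30 and 0.24 ± 0.30). Slc4a1, the anion exchanger band 3 of red blood cells, was the brightest of the class. It read 1365 and 880.2 in unstimulated IgM cells, 829 and 230.5 after HEL, 487 and 1004 in unstimulated IgMG cells and 680 and 697 after HEL, with changes of -1.29 ± 0.53 and -0.03 ± 0.53 (adjusted p = 0.146 and 0.986).

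Slc4a1 is a defining gene of red cells, and other genes of the erythroid list varied with it. Without the second IgM HEL array its change in IgM cells was -0.40 ± 0.42 (limma, adjusted p = 0.649), and without the first it was -2.17 ± 0.42 (adjusted p = 0.0192). Its lowest value was on the second IgM HEL array, and on that array Alas2, Epb42 and Car1 had their lowest values too, 1198, 37.1 and 11.6. Car2 was 594 there and lowest, 543, on the first IgMG unstimulated array, which held the next lowest Slc4a1 value. Hba-a1 was 12305 on the second IgM HEL array, inside its range on the others. None of the 5 erythroid genes passed the threshold in any comparison, and the part of red cell RNA in the Slc4a1 signal was not tested. In these pooled cells, fewer cells of a type and less RNA per cell cannot be told apart.

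**Figure D5:**
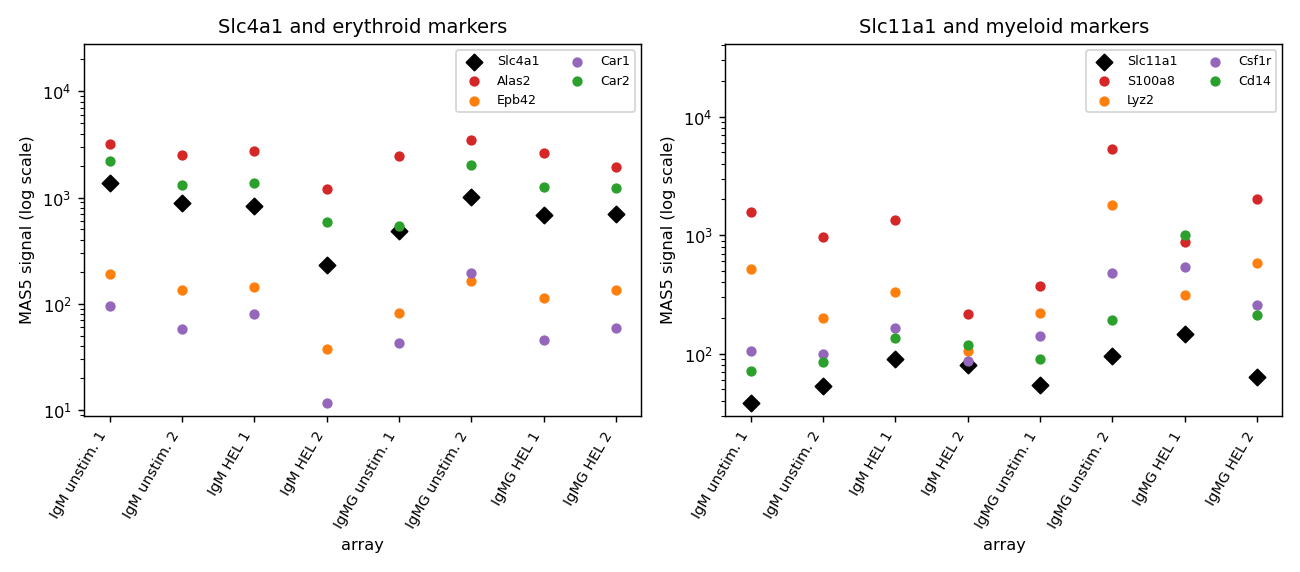
MAS5 signal (vertical axes, log scale) on each of the 8 arrays of Slc4a1 beside the erythroid markers Alas2, Epb42, Car1 and Car2 (left) and of Slc11a1 beside the myeloid markers S100a8, Lyz2, Csf1r and Cd14 (right), 1 point an array. Slc4a1 is lowest, at 230.5, on the second IgM HEL array, and S100a8 and Lyz2 are highest on the second IgMG unstimulated array. Heights of different genes are not comparable. Hba-a1, the other erythroid marker measured, is not drawn, and at 12305 on the second IgM HEL array it lay inside its range on the others. The remaining myeloid markers are not drawn either, and among them Mpo was lowest, at 2.3, on the array where Slc11a1 was highest.

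The remaining classes had no gene past the threshold in IgM cells. Slc29a1 (ENT1), the equilibrative nucleoside carrier, read 105.8 and 90.5 in unstimulated IgM cells and 161 and 161 after HEL, a change of 0.63 ± 0.23 (limma, adjusted p = 0.104), and 0.35 ± 0.23 in IgMG cells. The monocarboxylate carrier Slc16a1, which moves lactate, was dim, and Slc16a7 and Slc16a8 had low signals with changes of 0.66 or less. Of 7 tested carriers of neurotransmitters and related substrates none passed, and the brightest was Slc6a6, the taurine importer. Of 10 tested carriers of organic ions, peptides and lipids 1 rose in IgMG cells, or 10%, where 3.10% of all tested probe sets rose. It was Slc10a3, an orphan, which went from 269 and 201 to 404 and 469, by 0.86 ± 0.18 (limma, adjusted p = 0.0322). In IgM cells it read 309 and 321 unstimulated and 396 and 397 after HEL, a log2 change of 0.32 ± 0.18 (adjusted p = 0.295). Slc9a3r1, a scaffold protein that is no carrier itself, read 569 and 736.5 in unstimulated IgM cells and 401 and 447 after HEL, and had changes of -0.59 ± 0.17 and -0.55 ± 0.17 (adjusted p = 0.0543 and 0.103). Slc66a2, the single gene of another family, had changes of 0.15 ± 0.20 and -0.29 ± 0.20.

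The comparison the study was built for is whether the response to antigen differs between the receptors. No Slc gene passed the threshold for the difference of the HEL responses (limma, adjusted p under 0.05), and 0% of all tested probe sets passed, while 8 of 96 Slc genes and 750 of 7453 probe sets had an unadjusted p under 0.05. The 5 Slc genes with the smallest p were Slc20a1 (-1.24 ± 0.26), Slc39a9 (0.89 ± 0.29), Slc6a6 (0.74 ± 0.25), Slc23a2 (-0.78 ± 0.27) and Slc6a18 (-1.58 ± 0.60), with adjusted p between 0.414 and 0.465. Slc6a18, a kidney amino acid carrier, had low signals, 3.7 to 53.0. Of the 9 genes that rose in IgM cells, all 9 had a change above 0 in IgMG cells and 7 had a smaller one, with medians of 1.23 and 0.91. Of the 9 that fell in IgM cells, all 9 had a change below 0 in IgMG cells and all 9 had a smaller one, with medians of -0.91 and -0.53. The genes in the 2 sets of 9 were chosen for passing in IgM cells, so their smaller IgMG values are given as a description with no test. For 4 of the 96 genes (Slc6a6, Slc39a9, Slc35b2 and Slc30a9) HEL and unstimulated arrays separated in opposite directions in the 2 cell types, which held for 5.02% of all tested probe sets.

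The receptors were also compared within each condition. Between unstimulated IgMG and IgM cells no Slc gene passed (0% of all tested probe sets), and 3 of 96 had an unadjusted p under 0.05 in limma. The 5 with the smallest p were Slc25a15, Slc6a6, Slc39a6, Slc2a5 and Slc10a3, with log2 differences between -0.70 and 0.44 and adjusted p of 0.992 to 0.995. Between HEL-stimulated IgMG and IgM cells no Slc gene passed either, against 0.0134% of all tested probe sets, and 12 of 96 had an unadjusted p under 0.05. The 5 with the smallest p were Slc20a1 (-0.86 ± 0.18, adjusted p = 0.192), Slc25a53 (0.66 ± 0.19), Slc1a5 (-0.61 ± 0.18), Slc25a5 (-0.89) and Slc8a1 (1.06), with adjusted p of 0.242 to 0.262 for the last 4. Slc8a1, a sodium-calcium exchanger, had low signals, 10.3 to 54.5. The Slc25a5 value comes from the probe set marked for shared probes, and it ran from -1.15 to -0.18 under the alternatives. That probe set had HEL means of 496 in IgM cells and 256 in IgMG cells. The other Slc25a5 probe sets had HEL means of 116 and 104, and of 35.5 and 18.9. With 2 arrays a group, a value that misses the threshold does not show that the receptors act alike.

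The 55 untested Slc genes had mean signals of 21.8 or less and no single-array signal above 48.2, and the tested gene with the lowest mean was at 24.4. They included 11 of the 20 amino acid carriers, 13 of the 23 carriers of organic ions, peptides and lipids, 8 of the 17 inorganic ion carriers and 7 of the 14 neurotransmitter carriers, but 3 of the 20 mitochondrial carriers and 2 of the 16 metal carriers. No response is given for them here, and a dim signal does not show that a gene is off. Slc20a2 was not measured by a probe set with 1 symbol. Of the 96 tested genes 35 had a mean signal over 200 and 24 one under 50, and the smaller signals carry the larger errors.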

How the data were processed

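Each of 8 single-colour oligonucleotide arrays measured RNA from FO B cells, with 2 arrays in each of 4 groups. The sample titles gave the groups and the replicate numbers. Nothing in the labels says whether arrays share mice, so p-values measure the spread between these pools. The deposited values are linear intensities, 1 for each probe set on each array, made with MAS5 per the submitters' processing notes, which name neither its version nor its settings. MAS5 signals of dim probe sets are noisy.

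Of 12488 probe sets, 66 controls were left out. An offset of 16 was added before taking log2, which understates changes of dim genes, and the brightest 60% by mean over all arrays were tested (7453 of 12422, lowest mean signal 22.9). All 8 arrays were fitted with 1 coefficient per group in limma 3.58.1 (R 4.3.3; lmFit, eBayes with a trend), and p-values were adjusted over all tested probe sets by Benjamini-Hochberg with a threshold of 0.05. Errors are standard errors of the fit, and 95% intervals use its moderated degrees of freedom. Exact permutation of 2 arrays against 2 reaches a two-sided p of 0.333 at the lowest and was not used. Scripts were tested on simulated data.

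Gene symbols came from the platform annotation of 2016, and all 151 Slc genes matched the GRCm38.p6 gene table with 0 changed symbols. Classes were set by family number. Genes named by rule were all past the threshold in any comparison, the 8 brightest, the brightest of each class, the 5 with the smallest p in the difference of responses and in both receptor comparisons, and a list of well-known carriers. Some others, such as Slc41a1, Slc34a1, Slc34a2, Slc30a3, Slc2a4, Slc7a11 and Slc16a8, were named outside this rule. The members, classes and lists were chosen with earlier results of these data known. Tables and figures were made with Python 3.11.15, pandas 2.3.3 and matplotlib 3.10.9. The alternatives tried were other offsets, scalings, filters and models, the mean of all probe sets of a gene, the replicate number as a block, the Gapdh ratio as a covariate and leaving out arrays.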

Additional observations from a re-analysis of the deposited data

Results flagged for a closer look

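For 4 of the 96 tested Slc genes, or 4.17%, the HEL arrays lay wholly on one side of the unstimulated arrays in IgM cells and wholly on the other side in IgMG cells, where this held for 5.02% of all tested probe sets. Slc6a6, the taurine importer, read 480.2 and 607 in unstimulated IgM cells and 465 and 384 after HEL, and 389 and 399 against 529 and 523 in IgMG cells, a difference of responses of 0.74 ± 0.25 (limma, adjusted p = 0.425). A second Slc6a6 probe set gave 0.13 ± 0.51 in IgM cells, -0.06 ± 0.51 in IgMG cells and a difference of -0.19 ± 0.72 (adjusted p = 0.947), so the opposite directions rest on 1 of the 2 probe sets. Slc39a9, a zinc carrier of the ZIP family, read 110.5 and 151 against 75.0 and 76.2 in IgM cells and 107 and 93.8 against 124 and 116 in IgMG cells, a difference of 0.89 ± 0.29 (adjusted p = 0.418). Slc35b2, which carries the sulphate donor PAPS into the Golgi, went up in IgM cells and down in IgMG cells, with a difference of -0.71 ± 0.29 (adjusted p = 0.474). Slc30a9, a member of the zinc exporter family, did the same, with -0.69 ± 0.32 (adjusted p = 0.485). The test of the difference passed the threshold for none of the 4. Slc35b2 and Slc30a9 are named because their values were seen.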

How the results depend on the processing

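Over the 27 single-gene values past the threshold, the alternatives gave 538 values, of which 376 kept direction and call, 162 kept direction but no longer passed, and 0 reversed. Slc20a1, Slc23a2, Slc31a1, Slc39a6 and Slc25a53 in IgM cells passed under every alternative. Of 15 named values of the difference and the receptor comparisons, 0 passed under any of 295 alternative values, and 1 reversed, the difference of Slc6a6 between unstimulated IgMG and IgM cells, which was -0.44 and became 0.08 with the mean of all its probe sets. The 18 genes past the threshold in IgM cells became 5 to 22 on leaving out 1 array and 12 to 21 otherwise. The 9 in IgMG cells became 0 to 6 on leaving out 1 array, 5 when dim probe sets were kept, 2 when the trend of eBayes was dropped, 2 when each comparison was fitted on its own arrays and 2 with the Gapdh ratio as a covariate, so the IgMG count rests on the settings. With arrays centred on their median the 9 became 8, and the share of higher among all called probe sets in IgMG cells went from 57.5% to 70.6%. Without the second IgM HEL and second IgMG unstimulated arrays, which stand apart in Gapdh ratio and in marker sums, 12 genes passed in IgM cells and 7 in IgMG cells. Some genes outside these sets passed under single alternatives in IgM cells, such as Slc3a2 under 6 of 20, Slc41a1 under 4 and Slc9a3r1 and Slc25a5 under 3. The difference of responses and both receptor comparisons stayed at 0 genes under all alternatives. Same-numbered arrays deviated with correlations of -0.161 to 0.0163, which shows no strong shared deviation. These values cannot show whether such arrays shared mice, days or sorts, which the labels do not say. With the replicate number as a block, 15 genes passed in IgM cells and 4 in IgMG cells. Crossing the numbers of the unstimulated groups, an alternative chosen after seeing the data, gave 0 genes. Dim signals, 2 arrays a group and pools of unequal size limit the precision.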

Other observations

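Other transporters that work beside the solute carriers were read from lists written by hand. The V-type proton pump, which acidifies lysosomes and endosomes, had all 15 listed genes tested. In IgM cells 7 rose and none fell with HEL (median log2 change 0.46), and in IgMG cells 2 rose and none fell (median 0.22). Of all tested probe sets 6.70% rose in IgM cells and 3.10% in IgMG cells, with medians of -0.02 and -0.05. Atp6v0b, a subunit of the membrane ring, went from a mean of 555 to 1586 in IgM cells, a rise of 1.44 ± 0.25 (limma, adjusted p = 0.00742), and from 778 to 785 in IgMG cells, a change of 0.02 ± 0.25 (adjusted p = 0.972). The difference of -1.42 ± 0.36 did not pass the threshold (adjusted p = 0.414). Atp6v1d, a subunit of the rotor, rose in both, by 0.87 ± 0.16 and 1.03 ± 0.16 (adjusted p = 0.0082 and 0.00857), as did Atp6v1a, the catalytic subunit, by 0.71 ± 0.15 and 0.62 ± 0.15 (adjusted p = 0.0156 and 0.0478).

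Of all tested probe sets, 6.70% rose and 7.27% fell in IgM cells, and 3.10% rose and 2.29% fell in IgMG cells. Among 8 tested ATP-driven ion pump genes 1 rose in each cell type, or 12.5%. It was Atp1b3, a beta subunit of the sodium-potassium pump, with means of 1209 and 2878 in IgM cells (1.24 ± 0.20, limma, adjusted p = 0.00579) and 1279 and 2291 in IgMG cells (0.87 ± 0.20, adjusted p = 0.0458). None of 16 tested ABC genes fell, while 1 rose in IgM cells (6.25%) and 2 rose in IgMG cells (12.5%). Abca1, the cholesterol exporter, rose in IgMG cells by 1.30 ± 0.29 (adjusted p = 0.0398) and had a change of 0.79 ± 0.29 in IgM cells (adjusted p = 0.109), while Abcf2 and Abce1, the other 2 that passed, are ABC proteins that carry nothing across membranes. Of 9 tested solute carriers with other symbols, 1 rose and 1 fell in IgM cells, or 11.1% each way, and none passed in IgMG cells. In IgM cells Mtch2 rose by 1.19 ± 0.22 and Mtch1 fell by 1.22 (SE 0.27, limma, adjusted p = 0.0101 and 0.0193). Both are proteins of the outer mitochondrial membrane. Genes and values in these lists were named after their values were seen.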
